A study of Homo sapiens with 15 samples.

Results

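The clustered protocadherin genes lie in tandem on the long arm of human chromosome 5, and their open chromatin was described here in K562 cells. All peaks that overlapped hg19 chr5:140160000-140900000 were taken from 15 peak lists, which gave 472 of 1070377 peaks. Peaks of any list sharing at least 1 bp were joined into regions, which gave 60 of 120992 regions. The window was divided into alpha (140160000-140400000), beta (140400000-140650000) and gamma (140650000-140900000), with 12, 16 and 32 regions. It holds 53 protocadherin genes, of which 15 are alpha, 16 beta and 22 gamma.

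K562 is an erythroleukaemia cell line. The cells were transduced with lentivirus to express dCas9, a Cas9 without nuclease activity, or dCas9-KRAB, its fusion with a KRAB repressor domain, and were selected with puromycin. The guide RNAs Cr4 and Cr10 target HS2, an enhancer of the beta-globin genes on another chromosome, and the study asked how specific such repression is across the genome. There were 5 groups of 3 libraries each. dCas9-KRAB was expressed without gRNA, with Cr4 or with Cr10, and dCas9 alone was expressed with Cr4 or with Cr10. All groups carry a transduced dCas9 protein, so none is untransduced K562, and all come from 1 cell line. The group without gRNA was taken from its titles and the design text, although its labels also list an HS2 target. Nuclei were digested with a nuclease and the released DNA was sequenced, so a peak marks DNA that was accessible. Nothing in the labels says which transductions or cultures the replicates came from, so a p-value here reflects the spread of these libraries alone, which may be technical.

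The lists held 53147 to 94777 peaks, and 17 to 50 of these lay in the protocadherin window. Because a longer list reaches weaker peaks, each list was also shortened to its 53098 strongest peaks, the length of the shortest list on the autosomes and X. A region's rank percentile in a library is the place of its strongest peak in that shortened list, 100 for the strongest and 0 for no peak. The total number of reads is not given in the sources used here, so depth is known only through the list length and the summit pileup, the number of fragments over a peak's highest point that the deposited fold and p-value imply. The library of dCas9 with Cr10 replicate 1 stood apart, with the shortest list and the fewest peaks in the window. HS2, an erythroid enhancer used to check the cell type, had a peak in all 15 lists. Its rank percentile ran from 1.9 to 84.2 (median 55.7), and it is also the target of both gRNAs.

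Clustered protocadherins are cell adhesion proteins of neurons, and each neuron is known to express a few of them in a combination that gives the cell a surface identity. Each alpha and gamma variable exon has its own promoter and is spliced to constant exons shared within its cluster, while the beta genes are single exons with no shared constant exons. Most of these promoters carry a conserved sequence element with the core CGCT near a site for CTCF, an insulator protein that loops promoters to distal enhancers such as HS5-1, and alpha variable exons are known to hold a further CTCF site inside the exon. Gene starts on hg19 were recalled from memory because no hg19 annotation was at hand. Against the RefSeq starts of GRCh38.p14, the recalled starts of all 53 genes were in the same order, and the spacing matched within 100 bp for 33 genes and within 500 bp for 51.

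The promoters of genes that were open in every list can be set beside those of genes that were never open. The sequences below are from RefSeq on GRCh38.p14, plus strand, and run from 250 bases before the gene start to 20 bases after it. Capitals mark the element CGCTGTNGNCCA, or the CGCT core alone where the longer form was not found. PCDHGA2, PCDHGB1 and PCDHGB5 are shown because they had a peak in all 15 lists. PCDHGA12 had a peak in all 15 lists too, but the RefSeq promoter table has no entry for it. PCDHB8 is a beta promoter with a peak in 13 lists and was added after its values were seen. PCDHGA5 and PCDHA10 are shown because no list had a peak at their starts. They are the 2 that hold the element among 8 such promoters in the RefSeq table.
PCDHGA2: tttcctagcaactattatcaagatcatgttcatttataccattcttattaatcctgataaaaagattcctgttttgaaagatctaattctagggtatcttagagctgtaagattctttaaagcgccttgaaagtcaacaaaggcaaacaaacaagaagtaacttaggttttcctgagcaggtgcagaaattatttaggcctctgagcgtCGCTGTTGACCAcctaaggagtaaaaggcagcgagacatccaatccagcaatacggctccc
PCDHGB1: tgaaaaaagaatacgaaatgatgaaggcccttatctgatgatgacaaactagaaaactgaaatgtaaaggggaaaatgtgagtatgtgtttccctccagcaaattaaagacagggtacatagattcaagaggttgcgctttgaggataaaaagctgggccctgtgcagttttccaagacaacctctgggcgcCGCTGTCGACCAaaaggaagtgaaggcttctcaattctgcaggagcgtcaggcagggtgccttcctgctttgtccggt
PCDHGB5: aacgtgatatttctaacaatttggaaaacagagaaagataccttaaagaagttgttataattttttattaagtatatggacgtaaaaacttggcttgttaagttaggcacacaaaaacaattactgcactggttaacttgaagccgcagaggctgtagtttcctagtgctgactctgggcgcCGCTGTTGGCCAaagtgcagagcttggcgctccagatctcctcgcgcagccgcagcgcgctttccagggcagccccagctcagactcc
PCDHB8: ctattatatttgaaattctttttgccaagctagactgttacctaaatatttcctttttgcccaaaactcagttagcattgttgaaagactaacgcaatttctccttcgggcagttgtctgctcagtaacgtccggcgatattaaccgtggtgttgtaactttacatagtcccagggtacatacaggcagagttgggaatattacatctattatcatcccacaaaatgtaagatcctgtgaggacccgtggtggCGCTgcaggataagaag
PCDHGA5: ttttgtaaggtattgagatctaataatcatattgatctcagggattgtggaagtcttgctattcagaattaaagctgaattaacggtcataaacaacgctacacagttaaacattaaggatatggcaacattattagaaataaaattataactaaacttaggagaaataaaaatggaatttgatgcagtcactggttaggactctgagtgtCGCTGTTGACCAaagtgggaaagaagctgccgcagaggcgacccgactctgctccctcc
PCDHA10: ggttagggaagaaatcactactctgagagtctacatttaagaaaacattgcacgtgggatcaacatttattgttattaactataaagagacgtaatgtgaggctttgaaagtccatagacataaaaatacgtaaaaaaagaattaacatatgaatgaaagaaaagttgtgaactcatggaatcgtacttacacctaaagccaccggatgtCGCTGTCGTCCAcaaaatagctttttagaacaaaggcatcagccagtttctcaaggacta

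The element was present at some open and some closed starts. It began at position -41 in PCDHGA2, -58 in PCDHGB1 and -68 in PCDHGB5, counting the first base of the gene as 0, and at -39 in PCDHGA5 and -40 in PCDHA10, which had no peak. PCDHGA2 and PCDHGA5 hold the same 12 letters, CGCTGTTGACCA. In PCDHB8 the marked CGCT began at 3, after the gene start, unlike the element in the other printed promoters. Whether it is the core of a conserved element was not tested. The RefSeq promoter table, whose windows run to 50 bases after the start, held 47 of the 53 genes. On either strand the core CGCT was found in 46 of these 47 promoters, against 69.379% of 27305 RefSeq promoters. The letters CGCTGTNGNCCA are those that the promoters of PCDHGA2, PCDHGB1 and PCDHGB5 share over 12 bases from a CGCT core, with N where they differ. On either strand they were found in 10 of 47, these 3 included by construction, against 0.106% of all promoters. Of the 10, 9 were among the 20 gamma promoters, 1 was among the 13 alpha promoters and 0 were among the 14 beta promoters. The CTCF core consensus was found on either strand in 0 of 47, against 0.527% of all promoters, in a window that ends 250 bases upstream. Openness counts a peak within 1000 bp of the start, also inside the exon, as at PCDHA4. By openness, the element was in 6 of 20 promoters open in 8 or more lists, the 3 that gave its letters included, 2 of 19 open in 1 to 7 lists and 2 of 8 open in none. These are matches of letters in a fixed window and show neither binding nor its absence.

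A small core of the window was open everywhere and most of it came and went between lists. Of the 60 regions, 10 (16.7%) had a peak in all 15 lists, against 32.1% of all regions, 48.5% of the 68 regions in the window of equal length to the left and 38% of the 100 to the right. A further 17 regions were in 8 to 14 lists, 21 in 2 to 7 and 12 in a single list. The median region was in 6.5 lists, against 9.0 over all regions. The 3 parts, divided by coordinates, differed, with 9 of 32 gamma regions, 1 of 16 beta regions and 0 of 12 alpha regions in every list. Their median numbers of lists were 12, 6.5 and 3.5. Of the 10 regions in every list, 4 were at protocadherin starts, all gamma, and 5 had no start within 1000 bp. The remaining 1 was the start of TAF7, which is not a protocadherin gene. The beta region in every list was the interval between PCDHAC2 and PCDHB1 and not at a beta start. These shares are a description of merged regions and were not tested. Of the 12 regions seen in a single list, 5 were from dCas9-KRAB with Cr4 replicate 3 and 4 from dCas9 with Cr10 replicate 3, both among the longest lists.

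By gene, 4 of the 53 starts had a region within 1000 bp in every list, 38 in 1 to 14 lists and 11 in none. In lists of equal length 4 starts were again in every list and 18 were in none. All 4 of the constant starts were gamma genes: PCDHGA2, PCDHGB1, PCDHGB5 and PCDHGA12. Without the library of dCas9 with Cr10 replicate 1 the number of starts open in all other lists was 7. At least 8 lists had a peak within 1000 bp of 14 of 22 gamma starts, 5 of 16 beta starts and 2 of 15 alpha starts. That distance also takes in regions inside an exon. PCDHA4, 1 of these alpha starts, had a region inside its exon in 11 lists and a region at its start in 0. Over all lists, 20 gamma, 12 beta and 5 alpha genes had a region at the start itself. By the 1000 bp distance the median start was open in 12.5 lists for gamma, 5.5 for beta and 1.0 for alpha, and at equal length in 7.0, 3.0 and 0 lists. The starts without a peak within 1000 bp in any list were PCDHA3, PCDHA9, PCDHA10, PCDHA11, PCDHA12, PCDHAC2, PCDHB1, PCDHB4, PCDHB11, PCDHGA5 and PCDHGC5.

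**Figure D1:**
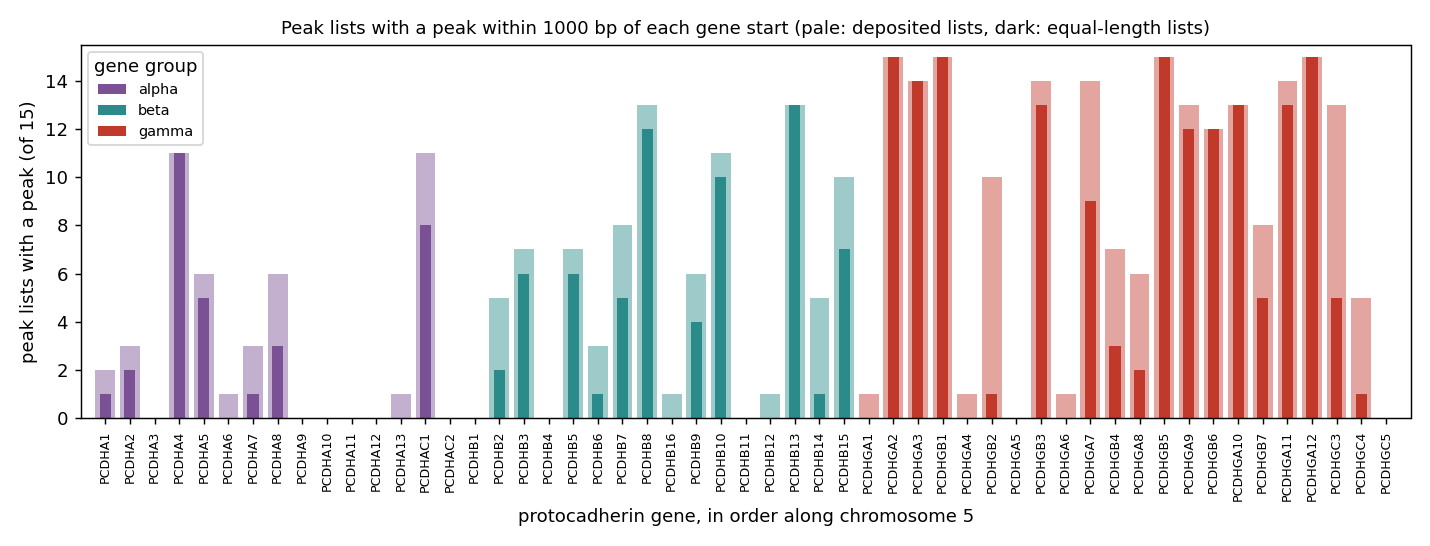
Number of the 15 peak lists (vertical axis) with a peak within 1000 bp of each protocadherin start, in order along the chromosome; pale bars count the deposited lists, dark bars the lists shortened to equal length, and colours mark alpha, beta and gamma. Only the gamma starts PCDHGA2, PCDHGB1, PCDHGB5 and PCDHGA12 reach 15 lists, in both kinds of list.

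PCDHGB1 was the strongest protocadherin start. Its region at chr5:140729447-140730105 reached a mean rank percentile of 66.9 ± 8.08 (SD, n = 15), and the median fold over local background, the authors' value for each peak, was 8.91. The rank percentiles were 66.9, 68.2 and 77.5 in dCas9-KRAB without gRNA, 80.9, 60.5 and 58.6 in dCas9 with Cr4 and 71.3, 61.7 and 73.0 in dCas9 with Cr10. They were 73.9, 49.7 and 65.0 in dCas9-KRAB with Cr4 and 71.3, 61.7 and 63.3 in dCas9-KRAB with Cr10. All 5 groups overlapped, and only 1 library was under 50.

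The other 3 constant starts were weaker and more variable. PCDHGA12, the last A-type gamma gene, had a mean of 44.1 ± 11.5 (SD, n = 15; range 24.2 to 69.6) at chr5:140809910-140810347. PCDHGA2 had 36.4 ± 16.3 (range 3.19 to 67.5) at chr5:140718171-140718601. Its lowest and highest values were both in dCas9 with Cr4, at 3.19, 67.5 and 44.2, so 1 group spanned the whole range. PCDHGB5 had 34.1 ± 11.8 (range 16.8 to 57.0) at chr5:140777317-140777824, with its lowest value in dCas9-KRAB without gRNA replicate 3 and its highest in dCas9-KRAB with Cr10 replicate 2.

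**Figure D2:**
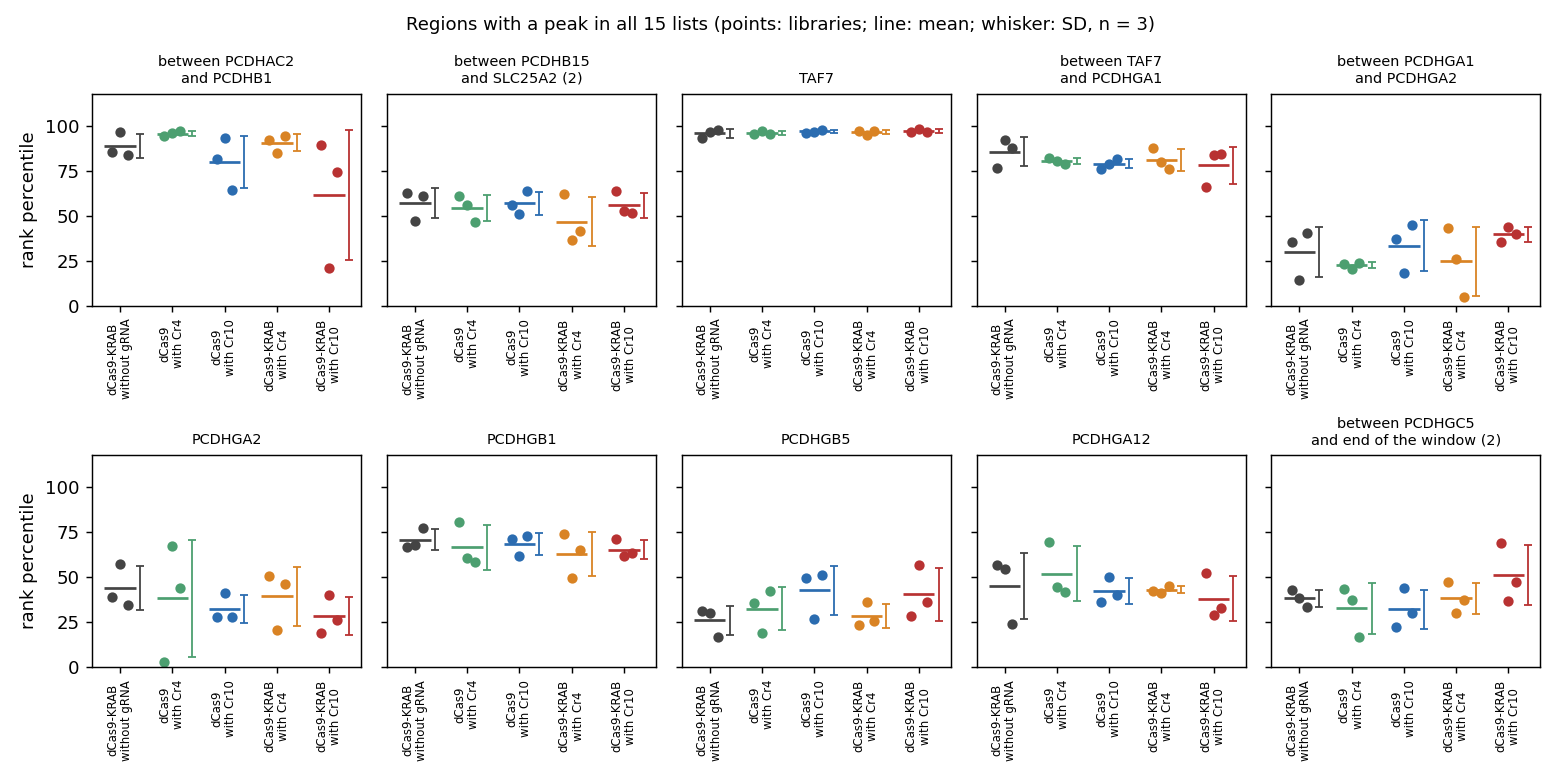
Rank percentile (vertical axis; 100 is the strongest peak of a library) of the 10 regions with a peak in all 15 lists, by group; points are libraries, lines are means and whiskers are SD with n = 3, and (2) marks a later region of the same interval. TAF7 stays between 93.1 and 98.3, while the interval between PCDHAC2 and PCDHB1 reaches down to 20.9 in dCas9-KRAB with Cr10.

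Of the gamma starts that were open in most lists, PCDHGB3 came next with a mean of 29.3 ± 18.8 (SD, n = 15) over 14 lists, then PCDHGA10 with 27.0 ± 17.6 over 13, PCDHGA11 with 24.4 ± 13.9 over 14, PCDHGA3 with 21.2 ± 11.1 over 14, PCDHGB6 with 18.8 ± 14.2 over 12 and PCDHGA9 with 16.3 ± 11.3 over 13. Neighbours in this order differed by less than 1 SD over libraries. PCDHGA7 had a peak at its start in 13 lists but a mean of only 9.59, and 9 of the shortened lists held a peak within 1000 bp of it. PCDHGC3 encodes a C-type isoform, a class known to be expressed broadly rather than by random choice. Its start was open in 12 lists, but only 5 of the shortened lists kept a peak there. At PCDHGB2 the drop was from 10 deposited lists to 1 shortened list. Shortening removes the lowest-ranked peaks by construction, so these losses show only that the peaks ranked low. The 4 constant starts stayed in all 15 shortened lists.

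**Figure D3:**
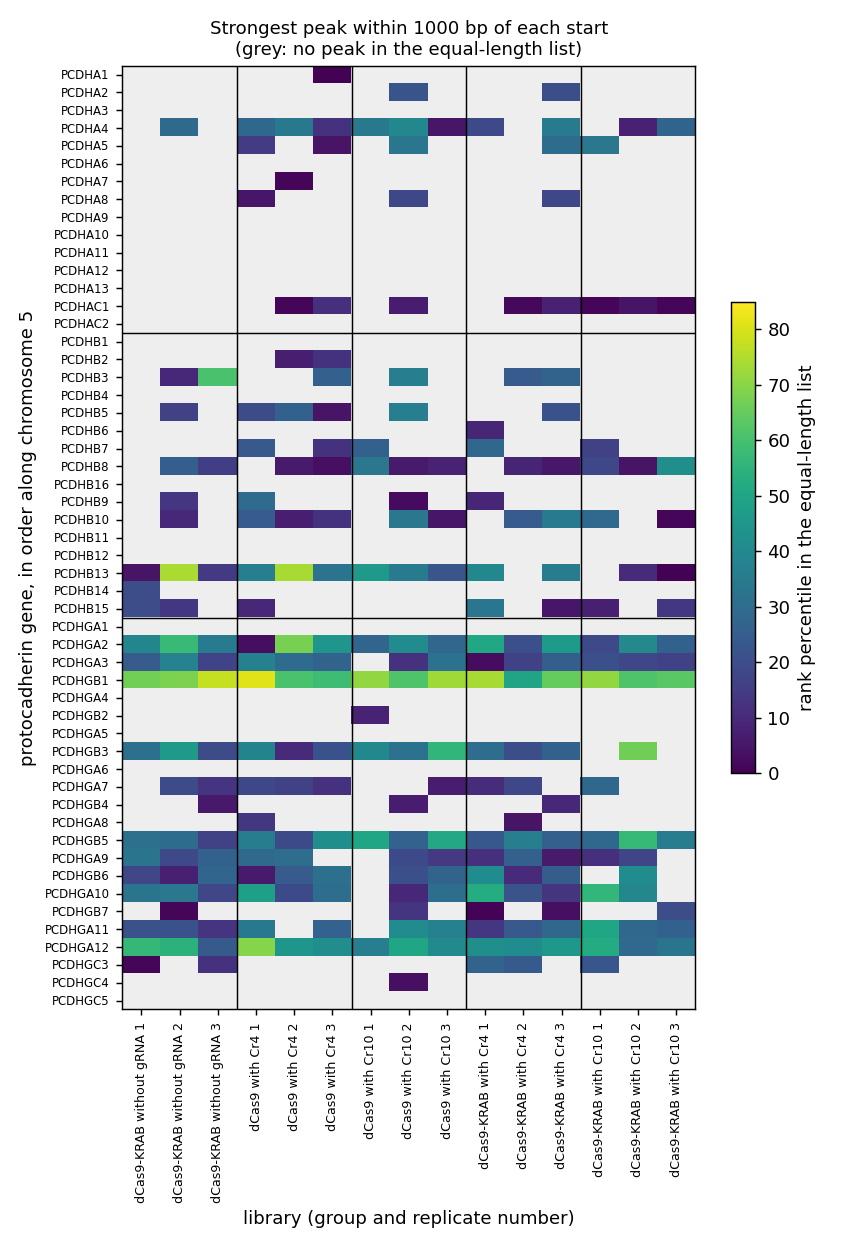
Rank percentile of the strongest peak within 1000 bp of each protocadherin start (rows, in order along the chromosome; horizontal lines divide alpha, beta and gamma) in each library (columns, by group), where grey marks no peak in the shortened list. PCDHGB1 has the brightest row by its mean of 66.9, though PCDHB13, PCDHGA2 or PCDHGB3 is brighter in 3 libraries. Most alpha rows are grey, and of the gamma rows PCDHGA1, PCDHGA4, PCDHGA5, PCDHGA6 and PCDHGC5 are grey in every library.

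The beta genes were open in part and weakly. PCDHB8 and PCDHB13 were each open in 13 lists, with mean rank percentiles of 11.95 ± 12.9 and 28.4 ± 24.4 (SD, n = 15) at chr5:140557208-140557570 and chr5:140593277-140593692. PCDHB13 had 4.38, 74.3 and 14.6 in dCas9-KRAB without gRNA, 36.2, 73.9 and 32.3 in dCas9 with Cr4 and 45.5, 35.2 and 22.6 in dCas9 with Cr10. It had 39.7, 0 and 36.1 in dCas9-KRAB with Cr4 and 0, 10.3 and 0.46 in dCas9-KRAB with Cr10. The values of the no-gRNA group alone ran from near the bottom of a list to its upper part. The other 14 beta starts were open in 0 to 11 lists, among them PCDHB10 in 11 and PCDHB15 in 10.

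In the alpha cluster, the regions were split between the inside of the variable exons and the starts. Of 11 alpha regions within 1000 bp of a start, 6 had their median summit 456 to 617 bp downstream of the recalled start (median 550), at PCDHA2, PCDHA4, PCDHA5, PCDHA7, PCDHA8 and PCDHA13. The other 5 lay between -160 and -23 bp. In the beta cluster 12 start regions lay between -239 and 10 bp (median -73.0) against 1 region inside an exon, and in the gamma cluster 20 lay between -248 and -80 bp (median -210.5) against 2 inside exons. In PCDHGA2, PCDHGB1 and PCDHGB5 the summits were at -222, -222 and -145 bp from the recalled starts. The element was at -41, -58 and -68 from the RefSeq starts. These offsets are counted from different starts, so whether the summits lie upstream of the element was not established. Positions rest on recalled starts, whose spacing matched within 500 bp for 51 genes. The exon offsets at PCDHA7 (462 bp), PCDHA8 (456 bp) and PCDHGC3 (354 bp) are under that distance. The beta region inside an exon was at PCDHB16 (680 bp), whose spacing was off by 832 bp, more than the offset itself. Only spacing was checked, so a shift shared by all recalled starts would not be seen.

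**Figure D4:**
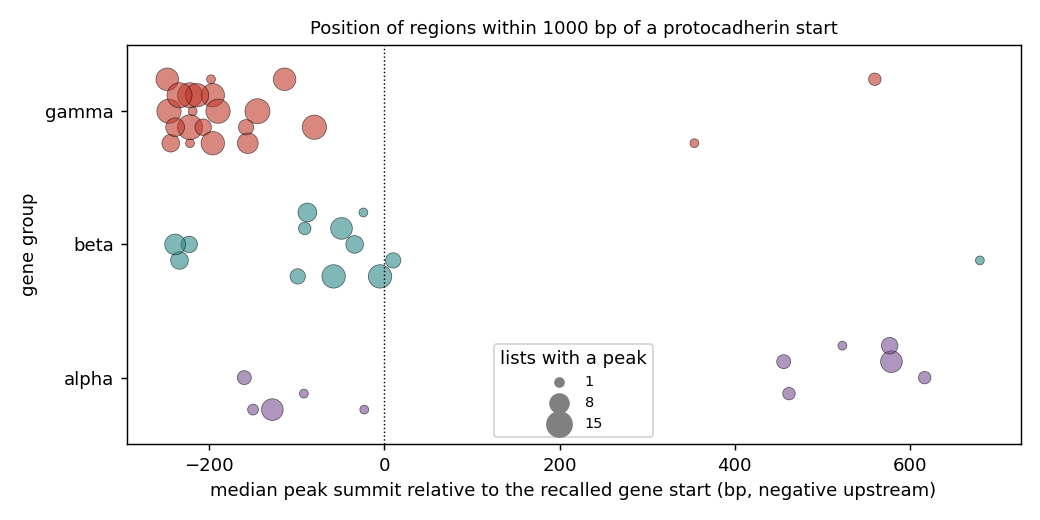
Median summit position of each region within 1000 bp of a protocadherin start (horizontal axis, bp from the recalled start, negative upstream), by cluster, with the circle area growing with the number of lists. Gamma circles gather between -248 and -80 bp, and 6 of 11 alpha circles lie between 456 and 617 bp.

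The strongest alpha region was inside PCDHA4, at chr5:140187091-140187483, and was singled out after its values were seen. It was present in 11 of 15 lists with a mean rank percentile of 18.2 ± 15.2 (SD, n = 15). The values were 0, 29.2 and 0 in dCas9-KRAB without gRNA, 28.6, 34.5 and 12.5 in dCas9 with Cr4, 34.2, 39.7 and 5.00 in dCas9 with Cr10, 18.9, 0 and 35.3 in dCas9-KRAB with Cr4 and 0, 7.93 and 27.3 in dCas9-KRAB with Cr10. Libraries with and without a peak stood in 3 of the 5 groups. PCDHAC1, a C-type alpha gene, was also open in 11 lists, but at a mean of 2.47 ± 3.64 and at most 11.8, near the bottom of the lists. A region at chr5:140228409-140228671, in 6 lists, lay 1361 bp from the recalled start of PCDHA9 and was not counted to it. The spacing of PCDHA9 was also the one farthest from RefSeq, by 1045 bp, so its count of 0 lists is the least certain.

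Outside gene starts, 13 regions had no start within 1000 bp, and 5 of them were open in all 15 lists. The strongest was at chr5:140420685-140421059, between PCDHAC2 and PCDHB1. This interval is where the HS5-1 enhancer of the alpha cluster is known to lie, although the coordinates put it in the beta window, and whether the region is HS5-1 itself was not checked. Its mean rank percentile was 83.3 ± 19.5 (SD, n = 15), with a median fold of 12.5 and a median implied pileup of 56 fragments. It was far stronger than any alpha region, of which none was open in every list.

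By mean rank percentile, the second was at chr5:140705602-140706335, with its summit at -4480 bp from the PCDHGA1 start, with a mean of 80.9 ± 6.17. PCDHGA1 itself, the first gamma variable exon, had a peak in 1 list. The third, at chr5:140677723-140678360 between PCDHB15 and SLC25A2, had a mean of 54.3 ± 8.53. The fourth lay at chr5:140891904-140892388, 23289 bp beyond the PCDHGC5 start, near the end of the shared gamma constant exons (placed from memory), and had a mean of 38.6 ± 12.2. Its median implied pileup was 83 fragments at a median fold of 6.62, while PCDHGB1 had 52 fragments at a fold of 8.91, so rank by fold placed it lower than its fragment number would. The weakest of the 5, at chr5:140713878-140714287 between PCDHGA1 and PCDHGA2, had 30.2 ± 12.3. SLC25A2, a mitochondrial carrier gene without introns, had no peak in any list. TAF7, which encodes a subunit of the general transcription factor TFIID, lies between the beta and gamma genes. Its start was the strongest region of the window, at 96.5 ± 1.33 (range 93.1 to 98.3).

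The strength and spread of the 10 regions open in every list were set beside those of such regions across the genome, without a test. Their median mean rank percentile was 49.2, against 66.0 over the 34007 regions in all 15 shortened lists. The median SD over libraries was 11.7 percentile points, against 7.9. Rank percentiles are bounded at the top of the list and the sets differed in level, so these SDs do not separate steadiness from level. TAF7, near the top, had the lowest SD of the 10 and the interval between PCDHAC2 and PCDHB1 the highest. On log2 implied pileup relative to each library's median, TAF7 ran from 0.47 to 1.05 and PCDHGB5, more narrowly, from -1.17 to -0.73. The interval again had the widest range, from -1.67 to -0.13. Of the factors known to act at clustered protocadherins, CTCF, SMC3 and NIPBL (loop formation) and SMCHD1, DNMT3B and SETDB1 (silencing) each had a peak at the start in all 15 lists, at median rank percentiles of 71.0, 64.5, 69.4, 71.5, 82.4 and 94.0.

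GC content of the promoters had a median of 43.2% for 20 promoters open in 8 or more lists, 36.0% for 19 open in 1 to 7 lists and 38.7% for 8 open in none, against 58.3% over all RefSeq promoters. Among gamma promoters alone it was 44.3% for 13 open in 8 or more lists and 36.3% for the other 7. Over all members the medians did not follow the order of openness, which again counts peaks within 1000 bp of the start. PCDHAC2 and PCDHGC4, at 63.0% and 60.7%, were open in 0 and 5 lists. Neighbouring gene copies share sequence, and no test was made.

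The number of open starts per library, counted as those with a peak within 1000 bp, was highest in the longest lists. The library of dCas9 with Cr10 replicate 1 had 10 open starts and the other 14 libraries 16 to 36. The 4 longest lists had 29 to 36. By group the mean was 22 ± 9.54 (SD, n = 3) in dCas9-KRAB without gRNA, 27.3 ± 3.21 in dCas9 with Cr4, 22 ± 10.4 in dCas9 with Cr10, 24.7 ± 10.0 in dCas9-KRAB with Cr4 and 17.3 ± 0.58 in dCas9-KRAB with Cr10. In lists of equal length the group means ran from 14.3 ± 1.53 in dCas9-KRAB with Cr10 to 20 ± 1.73 in dCas9 with Cr4. Group ranges overlapped in the deposited lists except that dCas9 with Cr4, at 25 to 31, lay above dCas9-KRAB with Cr10, at 17 to 18, and these groups differ in both protein and gRNA. At equal length dCas9 with Cr4, at 18 to 21, and dCas9-KRAB with Cr4, at 17 to 23, both lay above dCas9-KRAB with Cr10, at 13 to 16, and the other pairs of groups overlapped. These counts were not tested.

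**Figure D5:**
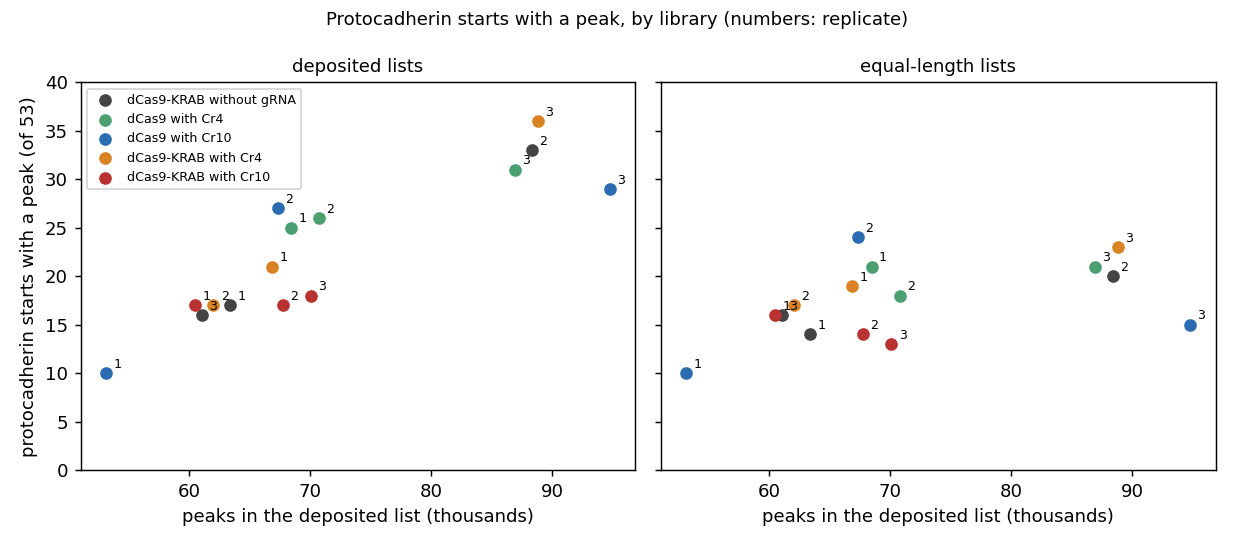
Number of the 53 protocadherin starts with a peak (vertical axis) against the length of the deposited list in units of 1000 peaks (horizontal axis), for deposited lists on the left and lists of equal length on the right; each point is a library, coloured by group and numbered by replicate. The spread of 10 to 36 starts in the deposited lists narrows to 10 to 24 at equal length.

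No protocadherin region passed the threshold between groups. Rank percentiles were fitted with limma over all 62858 regions that had a peak in at least 3 shortened lists, 33 of them in the protocadherin window, with the Benjamini-Hochberg adjustment and an adjusted p under 0.05 as the threshold. The comparisons with dCas9-KRAB without gRNA share those 3 control libraries. In each of the 8 comparisons 0 of the 33 regions were called, and 0 of all regions. At an unadjusted p under 0.05, limma gave, against the group without gRNA, 0 window regions for dCas9-KRAB plus Cr4 (2.43% of all regions), 1 for dCas9-KRAB plus Cr10 (2.81%), 0 for dCas9 plus Cr4 (1.39%) and 0 for dCas9 plus Cr10 (2.97%). For dCas9-KRAB against dCas9 it gave 1 with Cr4 (1.25%) and 0 with Cr10 (2.5%). For the 6 libraries of dCas9-KRAB with a gRNA against the other 9 it gave 2 (1.72%), and for any difference among the 5 groups 0 (1.44%). Limma on the implied pileup of the 10 regions open in all lists called 0, with 0 at an unadjusted p under 0.05. Over the 38888 regions tested on the pileup, the shares at that unadjusted p were, in the order above, 0.723%, 0.841%, 0.311%, 1.09%, 0.211%, 1.3%, 0.769% and 0.165%. The difference between the KRAB effects with Cr4 and with Cr10 was called at 0 window regions, and 0 had an unadjusted limma p under 0.05 (2.18% of all regions by rank, 0.627% by pileup).

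For Cr10 under dCas9-KRAB, the lowest p against the group without gRNA was at the interval between PCDHAC2 and PCDHB1. The rank percentiles there were 85.7, 96.4 and 83.9 in dCas9-KRAB without gRNA and 89.4, 20.9 and 74.3 in dCas9-KRAB with Cr10. They were 94.3, 95.9 and 96.9 in dCas9 with Cr4, 81.8, 93.2 and 64.6 in dCas9 with Cr10 and 92.3, 85.2 and 94.5 in dCas9-KRAB with Cr4. A single library, dCas9-KRAB with Cr10 replicate 2, was far below the rest, and the compared groups overlapped. The difference was -27.1 percentile points (SE 11.8; limma p = 0.0354, adjusted p = 1; exact two-sided permutation p = 0.3, where 3 against 3 cannot go below 0.1). The same region had the lowest p among the 5 groups, 0.0762 by limma's F test, adjusted p = 1. On the implied pileup the difference with Cr10 was -0.50 on the log2 scale (SE 0.25; limma adjusted p = 1).

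In the pooled comparison the lowest p was at PCDHGC3. The 6 libraries of dCas9-KRAB with a gRNA averaged 12.3 ± 13.6 (SD) and the other 9 averaged 1.53 ± 4.06, a difference of 10.8 (SE 4.59; limma p = 0.0324, adjusted p = 1; exact two-sided permutation p = 0.0879). The 6 values were 27.1, 24.1 and 0 with Cr4 and 22.6, 0 and 0 with Cr10, and of the other 9 only 2 libraries without gRNA were above 0, at 1.53 and 12.3. In the deposited lists, where 12 libraries had a peak there, the difference was 7.41 (limma adjusted p = 1). The dCas9-KRAB libraries with a peak were 3 without gRNA, 3 with Cr4 and 2 with Cr10. Those of dCas9 were 3 with Cr4 and 1 with Cr10. Some of the 0 values above are thus peaks that the shortening removed. At PCDHB13 the pooled difference was -23.2 (SE 10.8; limma p = 0.0477, adjusted p = 1; exact permutation p = 0.0611), with 14.4 ± 18.7 against 37.7 ± 24.0. Both pairs of groups overlapped.

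Few window regions had groups without overlap in rank percentile. Between dCas9-KRAB plus Cr10 and the group without gRNA there were 3 of 33 (9.09%), where 5.4% of all regions did not overlap. PCDHAC1 was higher (1.33 to 4.87 against 0 in all 3), PCDHGA11 was higher (26.4 to 50.1 against 12.9 to 21.5) and PCDHGA9 was lower (0 to 17.9 against 18.9 to 32.6). At PCDHAC1 the deposited list of replicate 2 without gRNA held a peak, with an implied pileup of 28 fragments. The shortening removed it, so that 0 is not a lack of a peak. For dCas9-KRAB against dCas9 there was 1 with Cr4 (3.91% of all regions), PCDHGA3, at 2.92 to 25.7 against 27.0 to 37.5. There was 1 with Cr10 (4.67%), PCDHB13, at 0 to 10.3 against 22.6 to 45.5. None was found in dCas9-KRAB with Cr4 (5.6%), dCas9 with Cr4 (3.64%) or dCas9 with Cr10 (5.07%) against no gRNA, nor in the pooled comparison (0.00795%). No adjusted p at these regions passed the threshold. At the constant starts PCDHGA2, PCDHGB1, PCDHGB5 and PCDHGA12 the rank percentiles overlapped in every comparison, and their differences ran from -15.4 to 16.5 percentile points with standard errors of 4.52 to 14.2.

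On the implied pileup, given as log2 relative to the median of each library, 2 of the 10 regions open in all lists had groups without overlap. PCDHGA2 was at -1.20, -1.08 and -1.06 in dCas9-KRAB with Cr10, below both -0.85, -0.53 and -0.95 in the group without gRNA and -0.91, -0.79 and -1.03 in dCas9 with Cr10. Its differences were -0.34 and -0.21 (SE 0.22 for each, limma adjusted p = 1). The interval between PCDHAC2 and PCDHB1 was at -0.22, -0.24 and -0.20 in dCas9 with Cr4, above -0.50, -0.27 and -0.43 without gRNA and above -0.34, -0.48 and -0.35 in dCas9-KRAB with Cr4. The group of dCas9 with Cr4 minus that without gRNA gave 0.19, and adding KRAB under Cr4 gave -0.17 (SE 0.25 for each, limma adjusted p = 1). Each of these 4 comparisons thus had 1 of 10 regions without overlap, where the shares of all 38888 regions were 4.22% and 4.54% for the comparisons at PCDHGA2 and 2.67% and 3.27% for those at the interval. There were 0 of 10 against no gRNA for dCas9-KRAB with Cr4 (4.78%) and dCas9 with Cr10 (3.88%), and 0 in the pooled comparison (0%).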

How the data were processed

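Peak lists of 15 libraries, 1 per library, were read in narrowPeak order. Per the submitters' processing notes, CASAVA 1.3, BWA and bedtools were used with hg19; which peak caller and threshold were used is not given in the sources, although the peak names carry a MACS prefix. The deposited fold is a ratio of each summit over local background, and the deposited p-value and q-value are on the −log10 scale. The deposited score and summit offset columns were read as the authors gave them.

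The protocadherin window, its genes and the lists of other genes were chosen with earlier results of these data known. Regions were merged at 1 bp overlap. Presence was counted in the deposited lists and, ranked by fold, in lists of 53098 peaks. The implied pileup is the whole number that meets the deposited fold and −log10 p within 0.01. It was found for 100.0% of peaks in each list. The measure fitted was its log2, centred on each library's median over the 38888 regions in all lists. Limma 3.58.1 in R 4.3.3 fitted 15 libraries and 5 groups with a mean-variance trend and no block; the script was checked on simulated data. Exact permutation tests used scipy 1.17.1. Named were all regions in 15 lists, up to 10 regions in 8 to 14 lists, and the regions with the lowest p in the pooled and F tests; regions named beyond these were chosen after their values were seen. RAD21, WAPL, DIAPH1, the beta pseudogenes and unclustered protocadherins were not analysed here.

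Equal replicate numbers were not taken to pair libraries, since the labels do not say so and only 13 of 30 same-numbered pairs had a correlation of deviations from group means over 0.1 (range -0.19 to 0.42, median 0.07, against a median of -0.11 for other numbers).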

Additional observations from a re-analysis of the deposited data

How the results depend on the processing

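The number of protocadherin starts open in all lists was 4 and moved to 7 without dCas9 with Cr10 replicate 1; leaving out each library in turn gave 4 to 7. It stayed 4 in shortened lists, with peaks of −log10 q of at least 5, and within 500 or 2000 bp of the start. Regions open in all lists numbered 10, and 10 to 12 with a library left out. Regions in any list numbered 60, 44 in shortened lists, 56 at the stricter q-value and 55 to 60 with a library left out. Shortened lists kept a peak in 5 lists at PCDHB7, PCDHGB7 and PCDHGC3 and in 1 at PCDHGB2. The count of called protocadherin regions was 0 for all 8 comparisons under every alternative run (over all regions it was 2 of 62230 for dCas9-KRAB against dCas9 with Cr10, without dCas9 with Cr10 replicate 3, and otherwise 0), among them 50000 peaks, log2 of the rank, a peak in at least 1, 2 or 5 libraries, 50 bp overlap and each library left out. With the replicate number as a block it was also 0, and the difference at PCDHGC3 stayed 10.8 (limma p = 0.0319, adjusted p = 1); 8 of 15 libraries correlated best with a library of their own number, a hint from the data and not the design. With a library left out that difference ran from 7.01 to 15. PCDHGC3 has no pileup alternative because it lacked a peak in some lists. Weak peaks are limited by list length, since total read numbers were unknown, and gene positions rest on recalled hg19 starts.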
